A study of Mus musculus with 4 samples.

Results

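The genes of the nuclear pore and of nuclear transport were examined for MOV10 binding in N2A cells. They were taken by name from the protein-coding genes of the RefSeq annotation of GRCm38: symbols that begin with Nup, Xpo, Ipo or Tnpo and a digit, or with Kpna or Kpnb, together with Ran, Ranbp1, Ranbp2, Rangap1, Rcc1 and Rcc2. This gave 49 of 21896 protein-coding genes. Of these, 13 held at least 1 MOV10 peak with its midpoint in the gene span, and they carried 121 of the 12236 peaks of the list.

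The study mapped RNA bound by MOV10, an RNA helicase, by eCLIP, in which protein is crosslinked to RNA in the cell, immunoprecipitated, and its bound fragments sequenced beside a size-matched input. It comprised 2 immunoprecipitate (IP) libraries made with an anti-MOV10 antibody and 2 Input libraries, all from N2A, a mouse neuroblastoma line grown in serum-containing medium, with no treatment or genotype given. The values used were those of 1 list of reproducible peaks over both replicates, so each peak has 1 log2 fold enrichment of IP over Input and 1 −log10 p, both the authors' own, with no spread between libraries and no known read depth. The lowest listed enrichment was 3.001 (log2) and the lowest −log10 p was 3.005, so a gene without a peak is not shown to be unbound, and it holds no expression levels, so the identity of the cells was not checked against markers.

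The nuclear pore is a ring of nucleoporins set in the nuclear envelope: outer rings built of Y complexes, an inner ring, membrane-anchored subunits, a channel lined with flexible repeats, filaments on the cytoplasmic side and a basket on the nuclear side. Cargo crosses it on receptors. Importins and transportins bind cargo in the cytoplasm and release it where Ran carries GTP, while exportins bind cargo together with Ran-GTP in the nucleus. Rcc1 charges Ran with GTP on chromatin, and Rangap1, with Ranbp1 and Ranbp2, discharges it in the cytoplasm.

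Of the 13 genes with MOV10 peaks, 9 encode import receptors or their adaptors. A peak was present in 9 of 17 genes for import receptors and their adaptors (52.9%) and in 3 of 22 genes for pore proteins (13.6%). Both groups hold only genes that the symbol rule takes. Outside the rule, 5 of 15 genes listed as pore proteins had a peak (33.3%), and 3 of 11 further receptors and Ran factors (27.3%). Of 5 genes grouped under the Ran cycle 1 had a peak, Rcc2, whose product is not the exchange factor of Ran. Of 5 exportin genes under the rule 0 had one. These are too few for a count of 0 to differ from the share of all protein-coding genes given next. Over the whole set, 13 of 49 genes (26.5%) held a peak, against 8.53% of all protein-coding genes. With peaks in overlapping genes left out, 11 of 49 did, against 7.70% of all protein-coding genes. A strongest peak of log2 4 or more was present in 6 of 49 (12.2%), against 3.59%, and at least 10 peaks as listed in 5 of 49 (10.2%), against 1.83%. With touching peaks merged, Kpna6, Tnpo3 and Tnpo1 still reached 10, while Rcc2 and Kpnb1 had 9. Merged counts of all protein-coding genes are not given here. All of these are counts of genes in 1 peak list and carry no test. The annotated spans of the 49 genes were longer, with a median of 47.3 kb against 17.1 kb for all protein-coding genes, and the part of gene length or of transcript abundance in these counts was not tested.

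**Figure D1:**
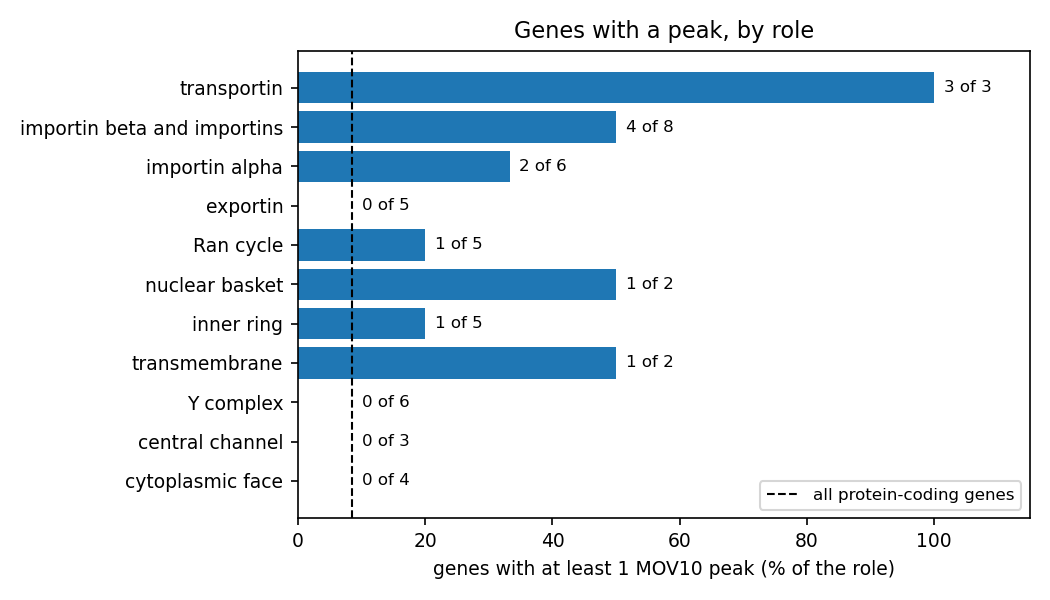
Share of genes with at least 1 MOV10 peak for each role (horizontal axis, percent of the genes of that role), with the number of genes beside each bar. The dashed line marks the 8.53% of all protein-coding genes. Among genes of the symbol rule, 4 roles, the exportins, Y complex, central channel and cytoplasmic face, have 0 genes with a peak. The exportin gene Xpot, the Y complex gene Seh1l and the channel gene Nupl1 had peaks but fall outside the rule and are not counted. The bar of the Ran cycle is Rcc2 alone.

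The number of peaks per gene ranged from 1 to 31. Rcc2 had 31 peaks and Kpna6 had 27, together 47.9% of the 121, but many of these touched. With touching peaks merged, Kpna6 had 17 intervals and Rcc2 had 9, together 33.8% of 77, beside 11 in Tnpo3, 10 in Tnpo1 and 9 in Kpnb1, so by this count Rcc2 did not exceed them. As listed, the median over the 13 genes was 7 peaks, against 3 in the 1855 other protein-coding genes with a peak. Peaks of the 13 genes were also shorter, with a median length of 52 nt against 74 nt in the other genes. Ipo11 and Kpna3 had 1 each. The strongest log2 fold enrichment per gene had a median of 3.93 (interquartile range 3.69 to 4.31), against 3.84 (3.42 to 4.39) in the other genes, and these ranges overlapped over most of their length. Of the 28 peaks that reached a log2 fold enrichment of 4, 20 (71.4%) were in Kpna6.

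**Figure D2:**
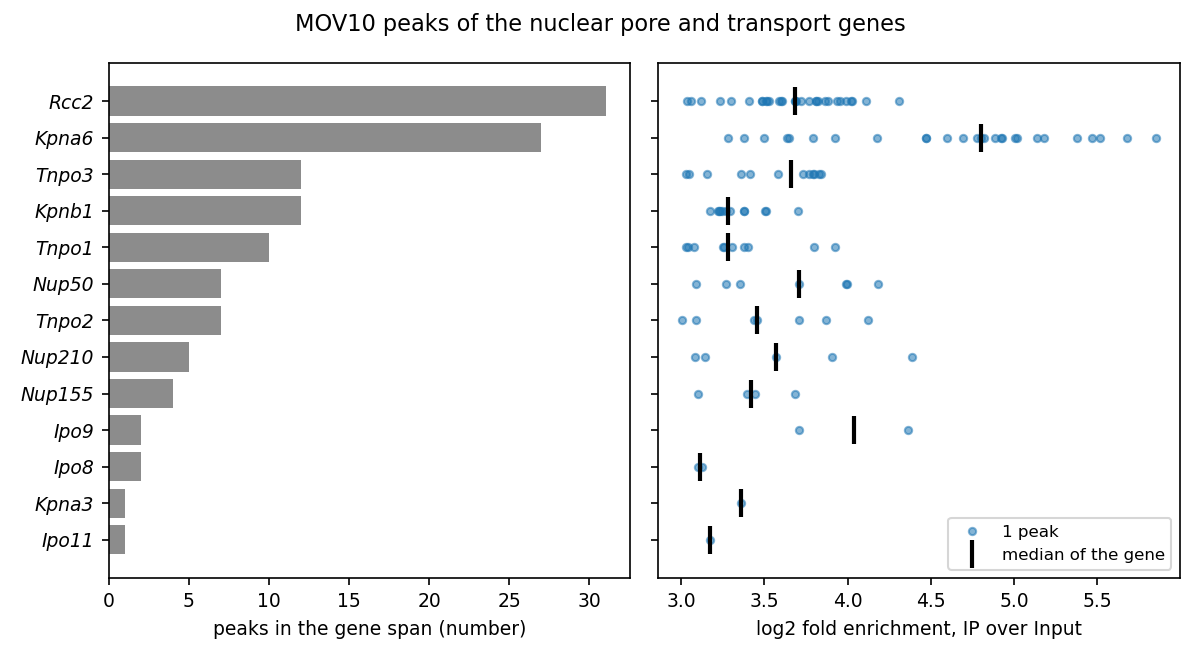
Number of MOV10 peaks in each of the 13 genes (left, bars) and the log2 fold enrichment of IP over Input of each peak (right, points, with the median of the gene as a black tick). Rcc2 has the most peaks as listed, 31 (9 after merging touching peaks, against 17 in Kpna6), while the peaks of Kpna6 reach 5.85 and those of the other 12 genes end at 4.39.

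Among the importin α genes, whose products recognise classical nuclear localisation signals and hand the cargo to importin β1, Kpna6 (importin α7) had the most peaks of the family and the strongest. Its 27 peaks had log2 fold enrichments of 3.28 to 5.85, with a median of 4.80. The strongest, at chr4:129646771-129646869 on the minus strand (GRCm38), was 57.8-fold enriched with a −log10 p of 50.2. Of the 1868 protein-coding genes with a peak, Kpna6 was 27th by strongest peak and 73rd by number of peaks. Its median enrichment was 12th among the 400 genes with at least 10 peaks. Kpna3, another importin α gene, had 1 peak of 3.36 (−log10 p 5.19) at chr14:61366954-61367035, 1808.5 nt from the 3′ end. Kpna1, Kpna2, Kpna4 and Kpna7 had 0.

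The peaks of Kpna6 formed an array of 3528 nt at the 3′ end of a gene of 28.8 kb. They lay 174 to 3649.5 nt from that end, with no gap over 500 nt, and merged into 17 intervals that covered 1713 nt. The enrichment was high and uneven along most of it and then stepped down. The 21 peaks up to 2841 nt from the end had a median of 4.92, and 20 of them exceeded 4. The 6 peaks beyond, from 3081.5 nt onwards, had a median of 3.57 and none reached 4, the highest being 3.93. Strong peaks stood at several places of the array: 5.52 at 772 nt, 5.47 at 1659 nt, 5.68 at 1939 nt and 5.85 at 2841 nt from the end. The exception among the 21 was 1 peak of 3.79 at 2420.5 nt. The annotation used here gives neither exons nor untranslated regions, so whether the step at about 3 kb meets a boundary in the transcript was not determined.

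Kpnb1, which encodes importin β1, the carrier shared by all importin α adaptors, was bound along its 3′ end at lower and even enrichment. Its 12 peaks ranged from 3.17 to 3.70 (median 3.28). Of these, 11 lay 281 to 1730.5 nt from the 3′ end, between chr11:97159971-97161446, and the strongest, at chr11:97160015-97160035, was 315 nt from it. The other peak stood alone, 7273 nt from the end, with 3.23 and the lowest −log10 p of the gene, 4.84. Every peak of Kpnb1 was thus below the median of Kpna6, one of its adaptors, and the range of Kpnb1 overlapped that of the 6 outer Kpna6 peaks.

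Among the other importins, which belong to the importin β family and carry cargo without an adaptor, binding was sparse. Ipo9, known as an importer of core histones, had 2 peaks. They were 4.36 at chr1:135384007-135384122, 1752.5 nt from the 3′ end, and 3.71 at 256 nt from it. Ipo8, which in human cells has been linked to Argonaute proteins, had 2 peaks of 3.10 and 3.13, at 244 and 698 nt from the 3′ end. Ipo11 had 1 peak of 3.17 at chr13:106794586-106794660, 184 nt from the end, where a read-through transcript annotated as Ipo11-lrrc70 also runs. Of the 7 genes named Ipo, Ipo9 was thus the 1 with a peak above 4. Ipo4, Ipo5, Ipo7 and Ipo13 had 0 peaks.

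All 3 transportin genes carried several peaks. Transportins are importin β relatives that bring RNA-binding proteins into the nucleus: transportin 1 and its close paralog transportin 2 carry hnRNP proteins, and transportin 3 carries SR splicing factors. Tnpo1 had 10 peaks of 3.03 to 3.93, and Tnpo2 had 7 of 3.002 to 4.12. Tnpo3 had 12 peaks of 3.03 to 3.84. The medians were 3.28, 3.45 and 3.66, so the 3 genes lay close together in strength and their ranges overlapped. They differed in position.

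In Tnpo1 the peaks lay 414.5 to 2448 nt from the 3′ end, led by chr13:98840280-98840318 at 1280 nt. In Tnpo2 they lay 76.5 to 1156.5 nt from the end, and the strongest, chr8:85056393-85056464, was the farthest from it. The Tnpo2 peaks also fell in the span of a long non-coding RNA gene, A230103J11Rik. All 7 were on the plus strand, which is that of Tnpo2, and the RefSeq promoter table places A230103J11Rik on the minus strand. In Tnpo3 no peak lay within 3 kb of the annotated 3′ end. Its 12 peaks were spread over 7476 nt in 6 groups separated by gaps of over 500 nt, from 3153 to 10503 nt from the end. The most distant, chr6:29551235-29551425, had the highest −log10 p of the gene, 22.3, with an enrichment of 3.79. Of the 400 protein-coding genes with at least 10 peaks, 31 had none within 2 kb of the annotated 3′ end, Tnpo3 among them, and 130 had at least 1 peak over 5 kb from it.

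**Figure D3:**
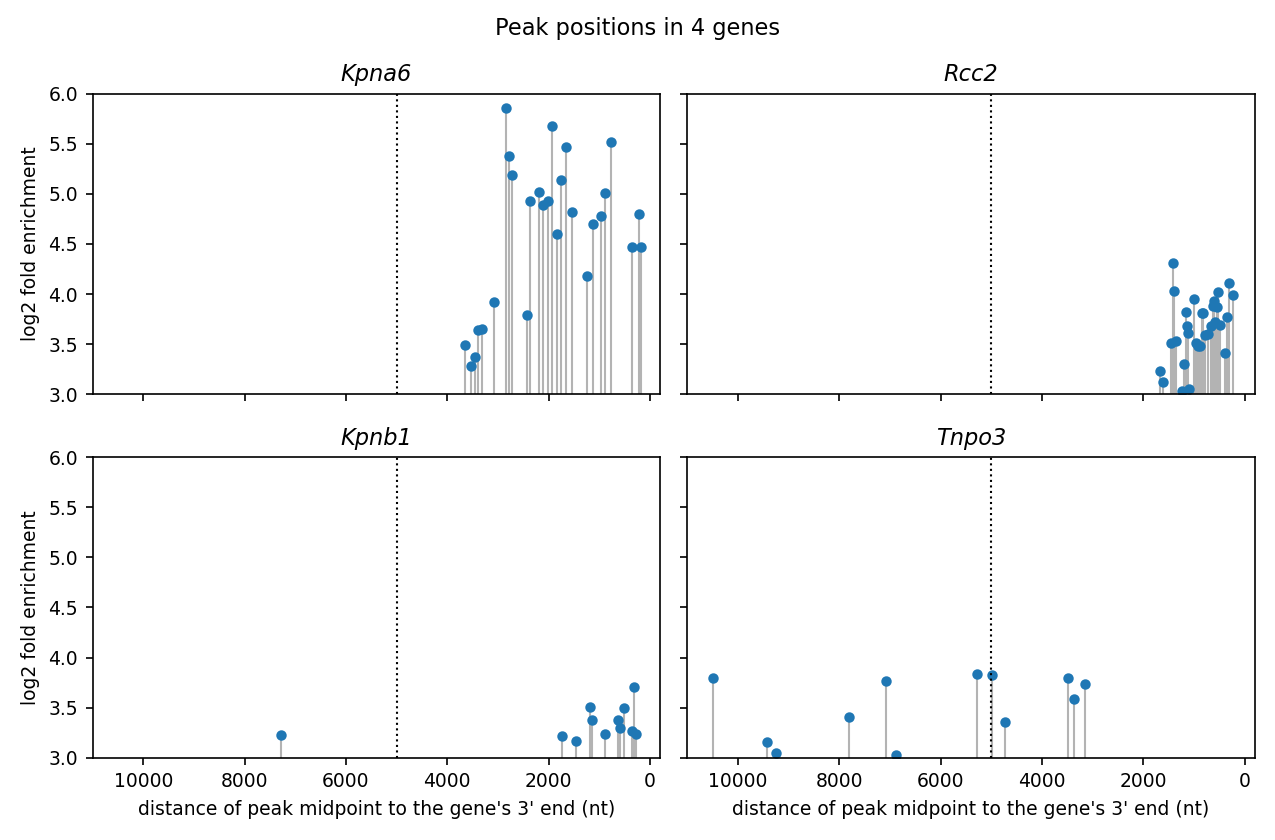
Position and strength of each peak in Kpna6, Rcc2, Kpnb1 and Tnpo3: distance of the midpoint to the annotated 3′ end (horizontal axis, nt, with the end at the right) against log2 fold enrichment (vertical axis, starting at 3, near the lowest value of the list). The dotted line marks 5 kb. Kpna6 steps down beyond 2841 nt, Rcc2 is packed within 1669 nt, and Tnpo3 is spread from 3153 to 10503 nt.

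Of the 5 genes grouped under the Ran cycle, Rcc2 was the 1 with peaks. Its product shares the propeller fold of Rcc1 and is known from mitosis and from Rac1 signalling, whereas exchange on Ran is the work of Rcc1. The 31 peaks of Rcc2 lay in 1466 nt, chr4:140721546-140723011 on the plus strand, 231 to 1669 nt from the 3′ end. Log2 fold enrichments ranged from 3.04 to 4.31 with a median of 3.68, and the strongest, at chr4:140721794-140721816, lay 1415 nt from the end. Their median length was 31 nt, against 65.5 nt in the other 12 genes, and most touched, so that they merged into 9 intervals covering 1098 nt. Rcc2 was 47th of 1868 genes by number of peaks as listed but 525th by strongest peak. Ran itself, Ranbp1, Rangap1 and Rcc1 had 0 peaks.

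Rcc2 and Kpna6 ranked in opposite order by the 2 values of a peak. In Rcc2 every peak had a −log10 p of at least 26.8, a level that 12.3% of the peaks of the list reached, and 7 of the 90 other peaks of the set, 6 in Kpna6 and 1 in Kpnb1. The median −log10 p was 43.0 in Rcc2 and 17.6 in Kpna6. Rcc2 was 9th of the 400 genes with at least 10 peaks by this measure and 251st by median enrichment, while Kpna6 was 75th by the −log10 p and 12th by enrichment. The peak of Rcc2 at chr4:140722303-140722372 was listed at 400, a ceiling that 84 peaks of the list share, with an enrichment of 3.48. At a given enrichment the p of a peak falls as its reads increase, but read numbers were not analysed here, and neither were transcript levels.

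**Figure D4:**
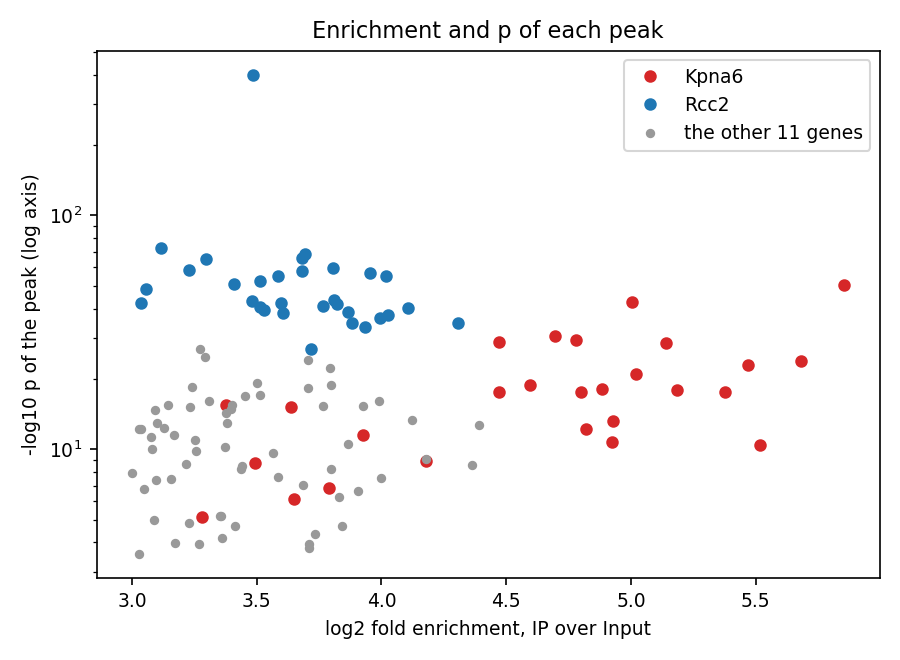
Each of the 121 peaks by log2 fold enrichment of IP over Input (horizontal axis) and −log10 p (vertical axis, log scale), with Kpna6 in red, Rcc2 in blue and the other 11 genes in grey. Rcc2 peaks sit at a −log10 p of 26.8 or more at enrichments up to 4.31, while Kpna6 peaks extend to 5.85 at −log10 p values up to 50.2.

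Among the nucleoporin genes taken by the symbol rule, peaks were found in 1 gene each of the nuclear basket, the inner ring and the membrane-anchored subunits. Nup50, a mobile basket protein that also helps to release cargo from importin α, had 7 peaks of 3.09 to 4.18, all 835 to 2256 nt from the 3′ end. The strongest was at chr15:84941422-84941554. Nup210, a transmembrane nucleoporin, had 5 peaks of 3.08 to 4.39 within 1035.5 nt of the end, led by chr6:91013562-91013634. Nup155, an inner ring scaffold protein, had 4 peaks of 3.10 to 3.69 within 730 nt of the end, led by chr15:8159639-8159670. None of these 3 genes had a peak over 2256 nt from the end, which was also true of Ipo8, Ipo9, Ipo11, Kpna3, Tnpo2 and Rcc2.

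The other pore genes among the 49 had 0 peaks. These were the Y complex genes Nup37, Nup43, Nup85, Nup107, Nup133 and Nup160, the inner ring genes Nup35, Nup93, Nup188 and Nup205, and the channel genes Nup54, Nup62 and Nup62cl. On the cytoplasmic face they were Nup88, Nup98, Nup214 and Ranbp2, and in the basket and membrane Nup153 and Nup210l. The exportin genes Xpo1, the main carrier of proteins with leucine-rich export signals, Xpo4, Xpo5, the carrier of microRNA precursors, Xpo6 and Xpo7 also had 0. In all, 36 of the 49 genes had none.

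In position the set followed the 3′ bias of the whole list. All 13 genes with a peak had one within 5 kb of the 3′ end, as did 1719 of the 1868 protein-coding genes with a peak. As shares of all genes these were 26.5% of the 49 and 7.85%, which mostly repeats the difference in having a peak. Of the 121 peaks, 113 (93.4%) were that close, against 86.9% in the other protein-coding genes, and 0 lay within 5 kb of the 5′ end, against 2.75% in the other genes, a share that leaves few peaks to be found there among 121. The 8 exceptions were 7 peaks of Tnpo3 and 1 of Kpnb1, and none of them exceeded 3.84. Within 2 kb of the 3′ end lay 75.2%, against 61.2% in the other genes, and the median distance was 1121 nt, against 1506.5 nt. Without Rcc2 and Kpna6, 55 of 63 peaks (87.3%) were within 5 kb. No gene of the set had peaks on both strands, and the peaks of the 11 genes whose strand was known from the RefSeq promoter table were all on that strand. For Kpna3 and Kpna6 the direction was taken from the peaks.

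Just beyond the gene spans, within 5 kb of either end, 23 further peaks were listed near 4 of the 49 genes. Near Kpna4, which had no peak of its own, 2 peaks in no annotated gene lay on its strand downstream of its 3′ end. They were chr3:69067790-69067876, with a log2 fold enrichment of 3.74 at 4388 nt past the end, and chr3:69067205-69067312, with 3.06 at 4962.5 nt. The other 21 had their midpoints in neighbouring genes: Abcb10 beside Nup133, 5031439G07Rik on the opposite strand beside Nup50, and Tpm3 beside Nup210l.

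Other genes of the pathway that the symbol rule leaves out were taken from 3 lists of pore proteins, of further receptors and Ran factors, and of mRNA export factors. Of these 49 genes, 11 (22.4%) held a peak, against 8.53% of all protein-coding genes. Here too the part of gene length or of transcript abundance was not tested. In the list of pore proteins 5 of 15 genes had one (33.3%). That list also holds Nxf1, Nxt1 and Nxt2, which act in mRNA export and had 0 peaks. The transmembrane nucleoporin gene Pom121 had 7 peaks up to 3.86 and the mRNA export factor gene Gle1 had 2 up to 3.53. Nupl1, the channel nucleoporin Nup58, had 2 up to 3.34, at 18880.5 and 19175 nt from the 3′ end. Tmem33 had 2 up to 3.28 and the Y complex gene Seh1l had 1 of 3.16. The single peak of Seh1l also lay in the span of another gene, as did 1 of the 7 peaks of Pom121.

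Of 11 further receptors and Ran factors 3 had peaks (27.3%). Xpot, which encodes the exportin of tRNA, had 10 peaks up to 4.31, all 305.5 to 2430 nt from the 3′ end. Ranbp10 had 5 up to 4.30, and Nutf2, the importer of Ran itself, had 1 of 4.05. Cse1l, the exportin that returns importin α to the cytoplasm, had 0. Of 23 mRNA export genes 3 had peaks (13%), the lowest share of the 3 lists and close to the 8.53% of all protein-coding genes. Poldip3, an adaptor associated with the TREX export complex, had 18 peaks up to 5.57, all within 1745.5 nt of the 3′ end and second only to Kpna6 in strength among the genes of both sets. Zc3h11a, another TREX-associated gene, had 9 up to 3.97, and the helicase gene Ddx19b had 2 up to 3.64.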

How the data were processed

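eCLIP libraries of N2A cells (2 IP, 2 Input) were represented by 1 deposited peak list, named as IP against Input after an irreproducible discovery rate step. Per the submitters' processing notes the builds were mm10 and GRCm38.p6. Aligner, peak caller and cutoffs: not given in the sources used here. With no header in the list, its values were read, from their range and the usual column order of eCLIP peak files, as the −log10 p deposited by the authors and the log2 fold enrichment of IP over Input deposited by the authors. If this reading is wrong, statements on strength change and those on position do not.

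Starts were converted to count from 1. With Python 3.11.15 and pandas 2.3.3, each peak was given to every GRCm38.p6 RefSeq gene span that held its midpoint. Gene direction came from the RefSeq promoter table or, where absent there, from the peaks. Assignment and distances were tested on simulated peaks. No genome sequence was used here, so no peak sequence is shown.

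All 13 genes with a peak are described, as a rule. Genes and lists were chosen with earlier results of these data known, and no test was made, since no values per library were analysed. Nothing in the labels says whether replicates came from separate cultures. Depth is unknown. Alternatives were a minimum log2 fold enrichment of 4, a minimum −log10 p of 5, peaks in exactly 1 gene, an overlap of 1 base, merged touching peaks, a window of 2 kb and spans of at least 15 kb.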

Additional observations from a re-analysis of the deposited data

How the results depend on the processing

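With only peaks of log2 4 or more, 6 genes with 28 peaks were counted, 100% of these were within 5 kb of the 3′ end, and genes with a peak in the 4 wider lists numbered 5 in place of 16. Merging touching peaks left 77 intervals in place of 121 peaks. A window of 2 kb held 75.2% of the peaks in place of 93.4%. The other 21 values moved by at most 1.5 times for counts, or stayed within the 95% interval for the share and the median. Among them, 12 genes had a peak at a −log10 p of at least 5 and 11 had a peak in no other gene, Ipo11 and Tnpo2 being lost. The minimum span of 15 kb could not change the share. Every gene of the set with a peak was longer, the shortest being Nup50 with 19.54 kb. The 95% interval counts each peak, or each gene for the median, as independent, although 47.9% of the peaks lay in Rcc2 and Kpna6. It served as a yardstick for these settings and measures no spread between libraries. No paired analysis was possible because the list gives 1 value per peak over all libraries, which also kept replicates from being left out. Counting error is unknown without read numbers.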

Other observations

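The nuclear envelope and lamina, in which the pores are set, were read from a further list of 18 genes. A MOV10 peak was present in 5 of them (27.8%), against 8.53% of all protein-coding genes, with few peaks in each. The part of gene length or of transcript abundance in this share was not tested. Sun1, an inner membrane protein that links the lamina to the cytoskeleton, had 4 peaks up to 4.17, all 29626.5 to 32284.5 nt from the annotated 3′ end. Lmna, the gene of lamins A and C, had 1 peak of 3.62 at 221.5 nt from the end, Nemp1 had 1 of 3.23, and Lbr, the lamin B receptor gene, had 1 of 3.01. Tor1aip2 had 1 of 3.30 at 15670.5 nt from the end. Some of these peaks lay near the limits of the list. The −log10 p was 3.008 in Tor1aip2, beside a lowest listed value of 3.005, and 4.12 in Nemp1. The enrichment in Lbr was near the lowest listed, 3.001. The lamin B genes Lmnb1 and Lmnb2 and the emerin gene Emd had 0 peaks.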
